A study of Mus musculus with 9 samples.

Results

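In mouse squamous cell carcinoma (SCC) cells, 52 genes stood at similar levels with wild-type and with kinase-deficient focal adhesion kinase (FAK), and at least 2-fold away from both in cells without FAK. Of these, 28 were higher with both FAK forms and 24 were lower. They came from 10301 genes with a mean level of at least 3 CPM (counts scaled to the library total) in some group, and from 19044 gene identifiers in all. The genes were chosen by their measured levels, so their fold changes are given as a description with no test. A gene qualified if its mean level in FAK-WT- and in FAK-kd-expressing cells was at least 2-fold above, or at least 2-fold below, its mean in FAK-/- cells. In addition, the FAK-WT and FAK-kd means lay within 2-fold of each other, and no FAK-/- library overlapped the other 5 libraries used. An offset of 0.1 CPM was added to every value before ratios were taken.

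The libraries came from 3 SCC cell lines, 3 biological replicates of each: cells without FAK (FAK-/-), cells expressing wild-type FAK (FAK-WT) and cells expressing a kinase-deficient form (FAK-kd). All came from a skin tumour raised by chemical carcinogenesis in FVB mice with floxed FAK alleles and an inducible Cre driven by a keratin promoter, and FAK was deleted in culture with 4-hydroxytamoxifen. Into a FAK-/- clone, wild-type FAK or FAK with 1 lysine of the kinase domain replaced by arginine (FAK-kd) was stably introduced by retrovirus, and the expressing cells were selected with hygromycin. Each group is therefore 1 line, and an effect of FAK cannot be told apart from other differences between the lines. Retroviral introduction and hygromycin selection are described for both FAK-expressing lines and not for FAK-/- cells. For levels shared by both forms, an effect of FAK cannot be told apart from one of these steps. FAK-WT replicate 1 held 779755 counts, against 25304994 to 37264636 in the other 8 libraries, and was not used to choose the genes. Of 10 epithelial markers in the table only Itga6 and Itgb4 reached 3 CPM, and their list summed to 233 to 245 CPM in FAK-WT, 364 to 385 CPM in FAK-/- and 342 to 353 CPM in FAK-kd libraries. Keratin genes that define squamous cells were near 0, with Krt5 at no more than 0.116 CPM and Krt14 at no more than 0.235 CPM. Of 7 fibroblast markers in the table, Col1a2, Col3a1, Pdgfra and Pdgfrb reached 3 CPM, and the list summed to 1640 to 1720 CPM in FAK-WT, 1340 to 1630 CPM in FAK-/- and 1380 to 1970 CPM in FAK-kd libraries, nearly all of it Col3a1. Pdgfrb stood at 3.85 to 6.92 CPM in FAK-WT, 25.1 to 26.1 CPM in FAK-/- and 24.4 to 38.6 CPM in FAK-kd libraries, while Col1a1, Dcn and Thy1 stayed at or under 1.63, 0.51 and 0.0537 CPM. No leukocyte or endothelial marker reached a group mean of 3 CPM. Leukocyte and endothelial lists summed to at most 3.36 and 2.07 CPM. The part of the marker differences in the results below was not tested. In such bulk samples, fewer cells expressing a gene and less RNA per cell cannot be told apart.

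FAK is a tyrosine kinase of focal adhesions, the sites where integrins anchor the cytoskeleton to the matrix. Besides phosphorylating partners, it acts as a scaffold that brings adaptor proteins and other kinases together, and it also enters the nucleus, where it binds transcription factors. A form that cannot transfer phosphate keeps the scaffold. Levels shared by cells with either form therefore address what differs between FAK-expressing and FAK-/- lines irrespective of kinase activity. The retroviral introduction and selection shared by both FAK-expressing lines are part of that difference.

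The lysine altered in FAK-kd is the one that holds ATP, and its codon is shown because it is the stated difference between the forms. In the GENCODE annotation of GRCm38 it lies in exon 17 of 32 of Ptk2-201, at chr15:73268864-73268866 on the minus strand. The stretch chr15:73268846-73268884 reads as follows, with the codon in capitals:
Ptk2: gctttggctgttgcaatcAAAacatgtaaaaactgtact

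Ptk2 was the check on the FAK-/- label only, since its level cannot show which FAK form a line expresses. Its level was 217, 218 and 217 CPM in FAK-WT replicates 1 to 3, 21.9, 23.5 and 19.6 CPM in FAK-/- cells, and 151, 158 and 175 CPM in FAK-kd-expressing cells. The groups did not overlap, and the order was FAK-WT, FAK-kd, FAK-/-. FAK-WT-expressing cells were 10.0-fold and FAK-kd-expressing cells 7.42-fold above FAK-/- cells, and FAK-WT was 1.35-fold above FAK-kd. Counts are summed over all Ptk2 transcripts, so they do not show which exons the remaining reads in FAK-/- cells came from.

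**Figure D1:**
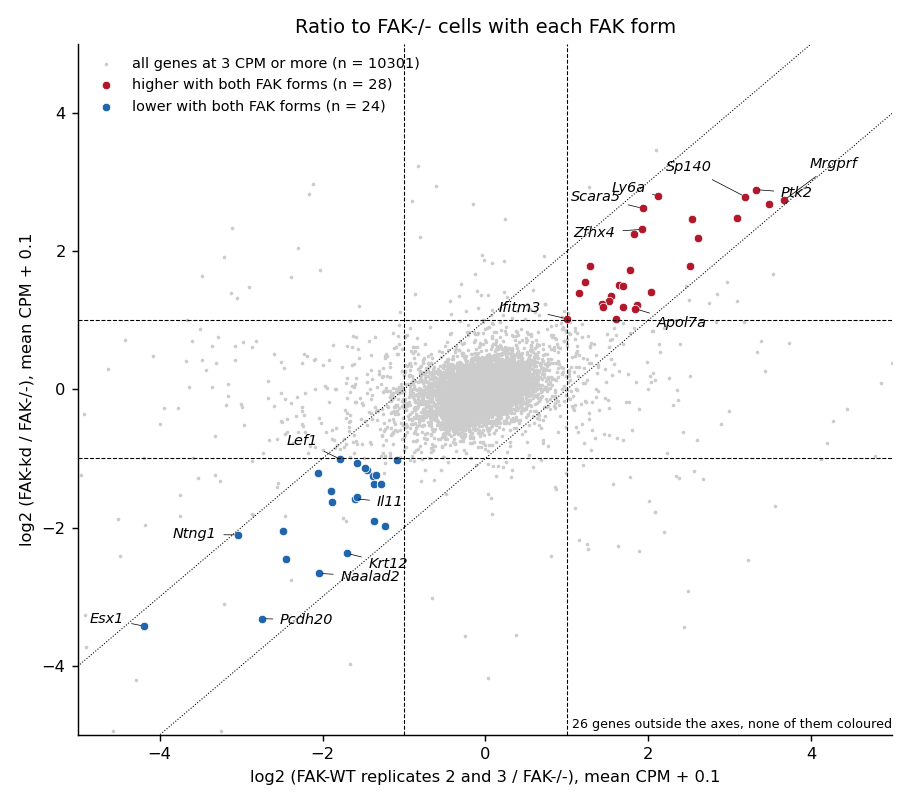
Each point is a gene, with the log2 ratio of FAK-WT (replicates 2 and 3) to FAK-/- cells on the x axis and of FAK-kd to FAK-/- cells on the y axis (mean CPM + 0.1); dashed lines mark 2-fold and dotted lines a 2-fold difference between the forms, and 26 genes lie beyond the axes. The 28 red and 24 blue genes sit between the dotted lines in the upper right and lower left corners, where the rule placed them.

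Both ratios share the FAK-/- libraries, so a gene that those libraries read high or low moves along the diagonal of this plot. Among the 10301 genes, 207 were at least 2-fold higher and 349 at least 2-fold lower with FAK-WT, and 101 and 117 with FAK-kd. For 107 genes both ratios passed 2-fold in the same direction, and for 37 they did so in opposite directions. Of the 107, 70 stood within 2-fold between the FAK forms, and 52 of those had no overlap between FAK-/- libraries and the rest. The rule thus kept 0.272% of genes as higher and 0.233% as lower. Among all genes at 3 CPM, the 5 FAK-WT and FAK-kd libraries lay above every FAK-/- library in 8.29% and below every one in 10.4%.

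Of the 18 genes dropped for overlap, all but Krcc1 and Zfp799 read highest in FAK-/- replicate 3. Rpl10-ps1 had 425 CPM there and 0 CPM in the other 8 libraries. Gm12918 had 1410 CPM there, against 177 and 161 CPM in FAK-/- replicates 1 and 2. Replicate 3 also stood apart in 3 genes that were kept, the identical pair Gm12895 and Gm12896 and Gm10925, described below.

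**Figure D2:**
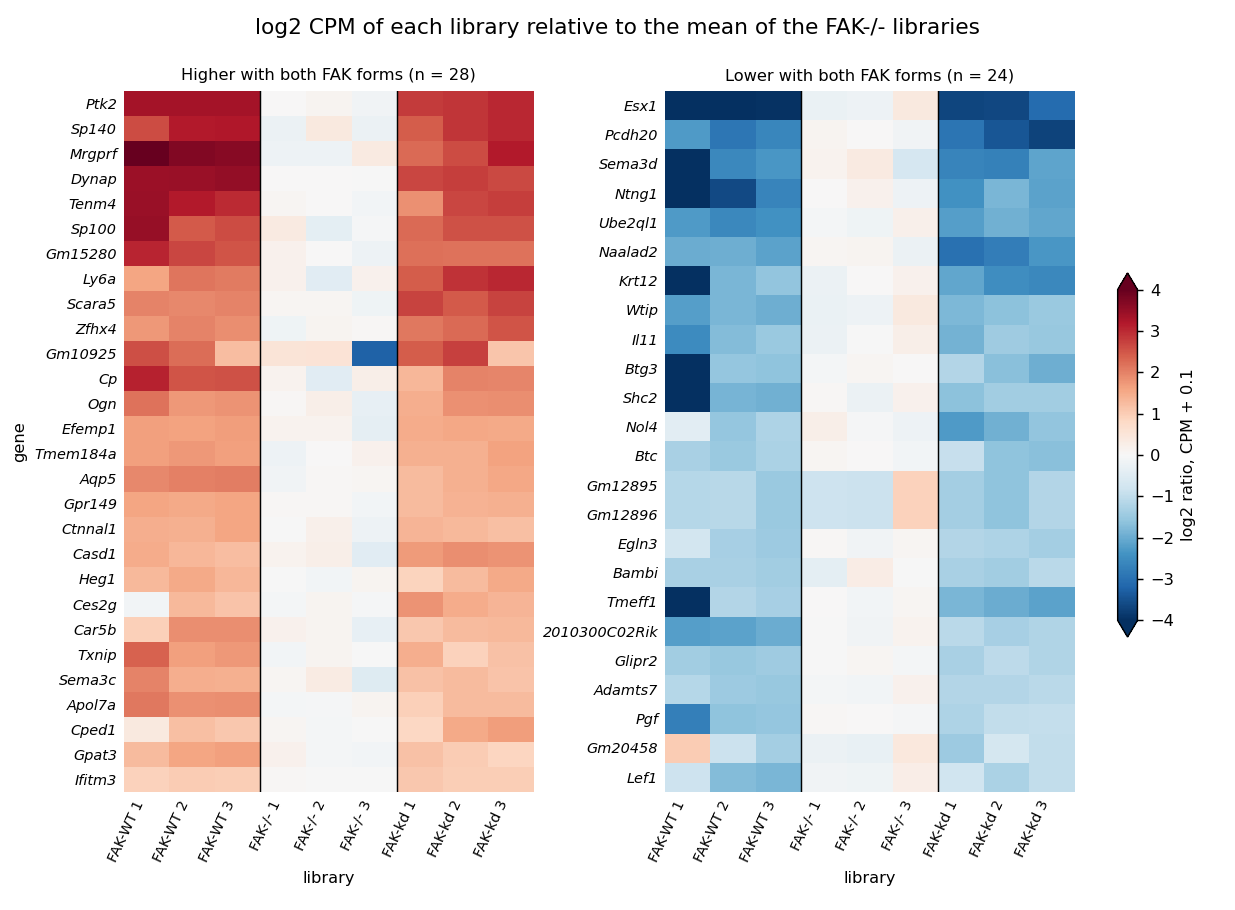
Rows are the 28 higher (left) and 24 lower (right) genes and columns the 9 libraries; colour gives the log2 ratio of the library's CPM + 0.1 to the mean of the FAK-/- libraries. FAK-/- columns are near white except for Gm10925 in replicate 3 and for Gm12895 and Gm12896. For this pair, replicates 1 and 2 lie below the FAK-/- mean and replicate 3 above it. FAK-WT replicate 1 is coloured against its group in Gm20458.

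The median ratio of the 28 higher genes was 1.83 on the log2 scale with FAK-WT and 1.64 with FAK-kd, and that of the 24 lower genes was -1.59 and -1.51. Over all 10301 genes both medians were near 0, at -0.00959 and -0.00696. Ratios ran from 2.01- to 12.7-fold in the higher genes with FAK-WT and from 2.03- to 7.42-fold with FAK-kd. The 28 include Ptk2, the gene that was deleted and reintroduced, which holds the 7.42-fold ratio. The largest FAK-kd ratio after it was 6.97-fold, in Ly6a. In the lower genes the ratios ran from 2.13- to 18.3-fold and from 2.01- to 10.8-fold. The ratio to FAK-/- cells was larger with FAK-WT in 20 of 28 higher and 17 of 24 lower genes. FAK-WT replicates 2 and 3 lay above all FAK-kd libraries in 17 higher genes, below them in 5 and among them in 6, where 33.7% of all genes at 3 CPM lay above and 32.7% below. Alike here thus means within 2-fold and not equal. For the lower genes these counts were 5 above, 10 below and 9 among. Levels were modest, with no group mean of 10 CPM in 13 higher and 12 lower genes.

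After Ptk2, the higher gene with the largest smaller ratio was Sp140 (3.48-fold with an offset of 1 CPM, where Dynap and Tenm4 among others stood above it), which lies beside its relative Sp100 on chromosome 1. Both encode nuclear proteins with chromatin-reading domains, Sp100 being a component of PML nuclear bodies, and both are induced by interferon. Sp140 had 3.85, 5.80 and 5.85 CPM with FAK-WT, 0.450, 0.751 and 0.448 CPM without FAK, and 3.40, 4.66 and 5.12 CPM with FAK-kd. No FAK-/- library came near the others, and the means were 9.12- and 6.92-fold above FAK-/- cells. Sp100 had 14.1, 6.87 and 7.58 CPM, then 1.5, 0.869 and 1.12 CPM, then 5.92, 7.34 and 7.27 CPM in the same order of groups. FAK-WT and FAK-kd libraries overlapped for Sp100, at 5.80- and 5.5-fold above FAK-/- cells. Sp140 (chr1:85600378-85645037) ends 4951 bases before Sp100 (chr1:85649988-85709998) on the same strand of GRCm38. Of the 31-base words of Sp140 transcripts, 67.8% also occur in transcripts of other genes, most often C130026I21Rik, so its reads are uncertain. On the far side of Sp100, A630001G21Rik was called higher with FAK-WT (log2 fold change 1.39, adjusted p = 0.00679 by edgeR's quasi-likelihood test with Benjamini-Hochberg adjustment) and not with FAK-kd (0.41, adjusted p = 0.504).

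Ly6a, which encodes the surface antigen Sca-1 of stem and progenitor cells and is also induced by interferon, was the third gene of the interferon list among the 52. It had 1.28, 1.93 and 1.85 CPM with FAK-WT, 0.420, 0.237 and 0.416 CPM without FAK, and 2.35, 3.28 and 3.63 CPM with FAK-kd. Here FAK-kd stood above FAK-WT, at 6.97- against 4.36-fold over FAK-/- cells. The FAK-/- libraries held 14, 6 and 13 counts, and with an offset of 1 CPM these ratios became 3.01- and 2.13-fold. Ly6a shares 31.9% of its words with other genes, most often Ly6c1, and it left the set without FAK-kd replicate 3. The 28 interferon-stimulated genes at 3 CPM held 3 of the 28 higher genes and none of the lower ones. Over all genes at 3 CPM, the rule kept 0.272% as higher and 0.233% as lower. Of the other 25 interferon-stimulated genes, edgeR called 7 higher with FAK-WT and 3 with FAK-kd, and none lower in either comparison. Of the 10301 genes, 1.96% and 1.01% were called higher in those comparisons. The median log2 fold changes of these 25 genes were 0.384 and 0.267, beside -0.0204 and 0.00965 over all genes. Calls here need an adjusted p no higher than 0.05 together with a 2-fold or larger difference, and both comparisons use the same FAK-/- libraries.

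Apolipoprotein L genes on chromosome 15 stood out beside Apol7a, which had 16.7, 13.7 and 13.9 CPM with FAK-WT, 3.60, 3.68 and 4.09 CPM without FAK and 7.39, 9.34 and 9.19 CPM with FAK-kd. Apol9a, 4679 bases away, is on the interferon list and missed the rule because its FAK-WT mean of 8.58 CPM was over 2-fold above its FAK-kd mean of 3.41 CPM. Against 1.25 CPM in FAK-/- cells, its log2 fold changes were 2.88 ± 0.227 (SE, n = 3) and 1.46 ± 0.219, with adjusted p of 2.96e-07 and 0.000556 in edgeR's test. Apol9b, 329929 bases from Apol7a, had log2 fold changes of 1.74 and 1.01, and its call with FAK-kd ended under 6 of the alternatives, among them DESeq2 (log2 fold change 1.00). Apol10b, in the same stretch, was called higher with FAK-kd only, at a log2 fold change of 1.41 against -0.90 with FAK-WT. Apol7a shares 25.2% of its words with other genes, most often Apol7b.

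Ifitm3, an interferon-inducible membrane protein that restricts virus entry, was the higher gene nearest to the threshold. It had 115, 123 and 119 CPM with FAK-WT, 62.0, 59.9 and 59.6 CPM without FAK, and 127, 121 and 121 CPM with FAK-kd. The FAK forms overlapped, and the spread within groups was small beside the 2.01- and 2.03-fold ratios. With library sizes scaled by TMM it fell out of the set. Its neighbour Ifitm2 stood at 154, 145 and 156 CPM in FAK-WT, FAK-/- and FAK-kd cells.

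**Figure D3:**
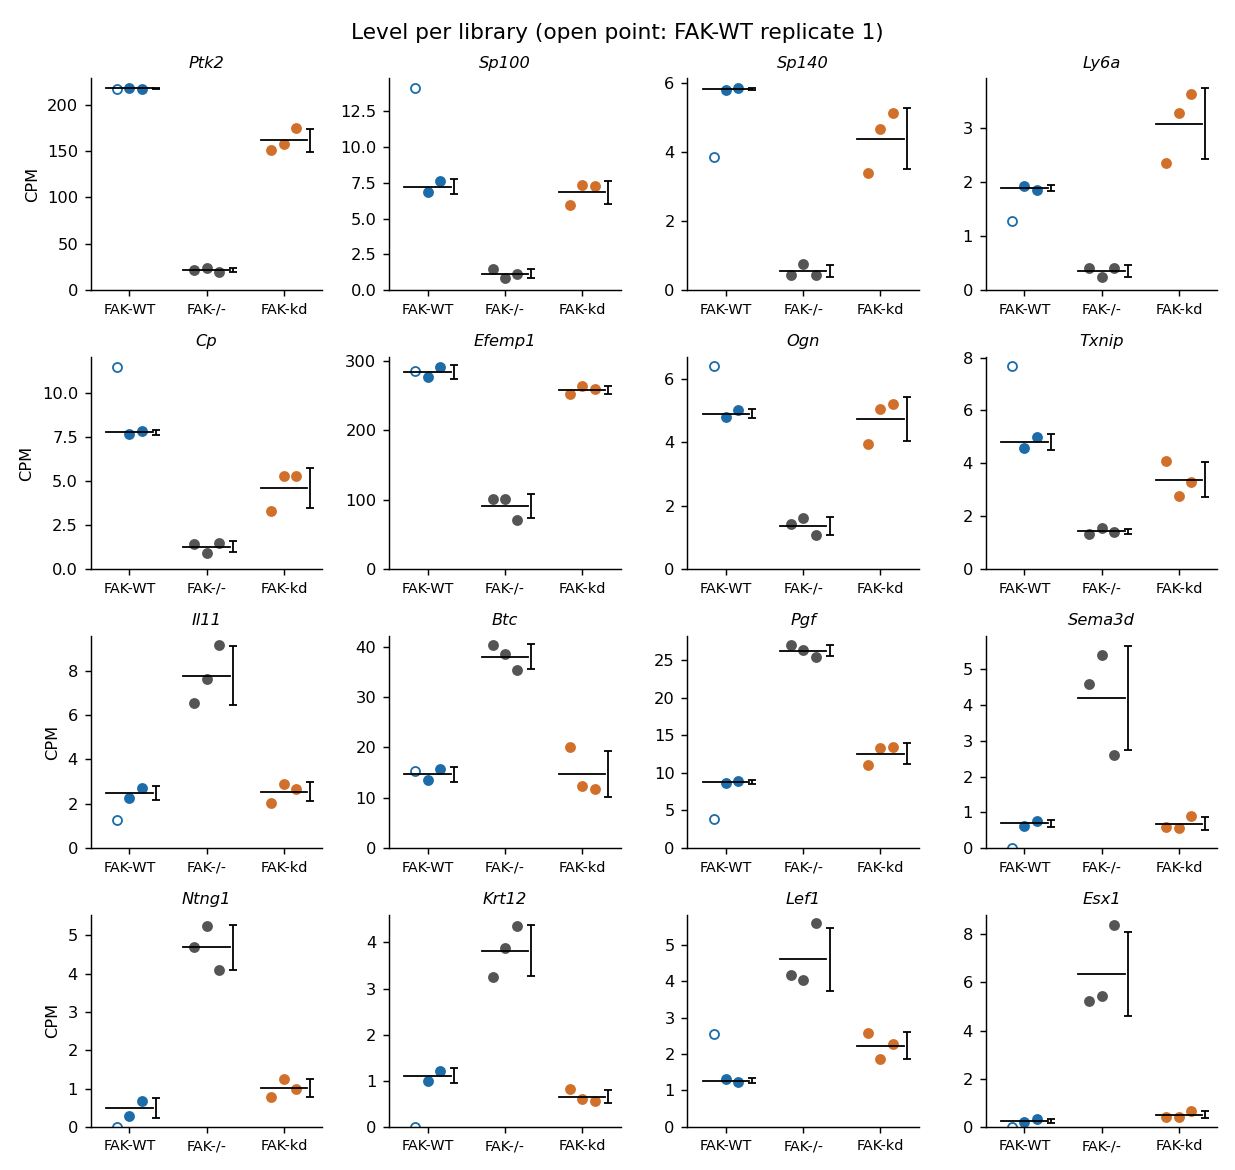
CPM of 16 of the genes in each library (points), with the group mean as a line and the SD as a bar beside it; the FAK-WT mean and SD use replicates 2 and 3, and replicate 1 is the open point. FAK-/- points lie clear of the filled FAK-WT and the FAK-kd points in every panel, and FAK-WT replicate 1 has 0 CPM of Sema3d, Ntng1, Krt12 and Esx1.

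Mrgprf, Dynap, Tenm4 and Scara5, which encode membrane proteins, were higher with both forms. Mrgprf, an orphan receptor of the Mas-related family, had 8.98, 3.22 and 3.04 CPM with FAK-WT, 0.120, 0.119 and 0.224 CPM without FAK and 1.11, 1.46 and 2.21 CPM with FAK-kd. Its FAK-WT ratio was 12.7-fold, but its FAK-/- libraries held 4, 3 and 7 counts, and with an offset of 1 CPM the ratios of 12.7- and 6.67-fold became 3.58- and 2.25-fold. Its FAK-WT level was 1.90-fold above FAK-kd, close to the limit of the rule. Dynap, a membrane protein that binds dynactin, had close replicates, with 96.2, 99.4 and 103 CPM, 9.08, 9.01 and 8.80 CPM, and 57.7, 60.9 and 56.6 CPM in FAK-WT, FAK-/- and FAK-kd libraries. Its ratios were 11.2- and 6.46-fold, and 10.3- and 5.96-fold with the offset of 1 CPM. Tenm4, a large teneurin adhesion protein of developing neurons, had 56.4, 46.8 and 41.2 CPM, 5.43, 5.10 and 4.73 CPM, and 18.4, 32.7 and 35.3 CPM. All FAK-kd libraries lay below all FAK-WT libraries for these 3 genes, and far above FAK-/-. Scara5, a ferritin receptor, showed the opposite order of the forms, with 12.8, 12.2 and 12.7 CPM, 3.36, 3.36 and 2.78 CPM, and 21, 17.9 and 21.1 CPM.

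Cp encodes ceruloplasmin, the copper-carrying ferroxidase that loads iron onto transferrin, and so handles iron as Scara5 does. It had 11.5, 7.67 and 7.85 CPM with FAK-WT, 1.41, 0.909 and 1.5 CPM without FAK, and 3.31, 5.31 and 5.26 CPM with FAK-kd. Every FAK-WT library was above every FAK-kd library, and the ratios to FAK-/- cells were 5.72- and 3.44-fold.

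Secreted matrix proteins appeared on both sides. Efemp1, a fibulin of elastic tissue, was the most abundant protein-coding gene of the set, with 286, 277 and 291 CPM with FAK-WT, 101, 101 and 70.9 CPM without FAK, and 252, 263 and 260 CPM with FAK-kd. Ogn, the small proteoglycan osteoglycin, had 6.41, 4.80 and 5.01 CPM, then 1.41, 1.62 and 1.06 CPM, then 3.93, 5.04 and 5.21 CPM. Its FAK-WT and FAK-kd libraries overlapped, at 3.43- and 3.30-fold above FAK-/- cells. Omd, a related proteoglycan gene 15224 bases away, stood at 5.68, 2.40 and 4.76 CPM in FAK-WT, FAK-/- and FAK-kd cells and was called higher in both comparisons (log2 fold changes 1.04 and 1.02, adjusted p = 0.0252 and 0.0351, edgeR). Adamts7, a protease that cleaves matrix proteins, was lower with both forms, at 32.1, 26.1 and 25.2 CPM against 68.1, 65.8 and 81.0 CPM without FAK, and at 31.4, 31.9 and 34.1 CPM with FAK-kd. Of all genes, the rule kept 0.272% as higher and 0.233% as lower. The list of 25 matrix glycoproteins, proteoglycans and ADAMTS proteases at 3 CPM held 2 higher genes and 1 lower gene. Of its other 22 genes, edgeR called 2 higher and 3 lower with FAK-WT, where 1.96% and 3.27% of all genes were called, and 1 higher and none lower with FAK-kd, where 1.01% and 0.980% were. Col12a1 was the most strongly called, at 1.67 CPM with FAK-WT and 25.1 and 33.4 CPM in FAK-/- and FAK-kd cells (log2 fold change against FAK-/- -3.76 and 0.42).

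Guidance molecules also divided. The secreted semaphorin gene Sema3c was higher, with 7.69, 5.37 and 5.27 CPM with FAK-WT, 1.98, 2.41 and 1.28 CPM without FAK, and 4.37, 4.69 and 4.25 CPM with FAK-kd. Its relative Sema3d was lower, with 0, 0.617 and 0.753 CPM, 4.59, 5.41 and 2.59 CPM, and 0.586, 0.567 and 0.901 CPM. Means with the FAK forms were the same for Sema3d, each 5.47-fold below FAK-/- cells. Ntng1, a membrane-anchored netrin, had 0, 0.295 and 0.666 CPM with FAK-WT, 4.71, 5.26 and 4.09 CPM without FAK, and 0.792, 1.25 and 0.989 CPM with FAK-kd. Of the other 30 axon guidance and neuronal cytoskeleton genes, 1 was called higher and 7 lower with FAK-WT, where 3.27% of genes were called lower. With FAK-kd none was called higher and 1 lower, where 0.980% of genes were called lower.

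Of the 29 growth factor genes at 3 CPM, 3 were in the set, all of them lower. The rule kept 0.272% of all genes as higher and 0.233% as lower. Btc encodes betacellulin, a ligand of the EGF receptor, and had 15.4, 13.6 and 15.7 CPM with FAK-WT, 40.3, 38.6 and 35.3 CPM without FAK, and 20.0, 12.4 and 11.8 CPM with FAK-kd. Il11, a cytokine of the IL-6 family, had 1.28, 2.28 and 2.72 CPM, 6.56, 7.63 and 9.18 CPM, and 2.05, 2.87 and 2.68 CPM. The FAK forms overlapped for both genes, at 2.59- and 2.57-fold below FAK-/- cells for Btc and 3.03- and 3.00-fold for Il11. Pgf, placental growth factor of the VEGF family, had 3.85, 8.61 and 8.95 CPM, 27.0, 26.4 and 25.5 CPM, and 11, 13.3 and 13.4 CPM, with FAK-WT below FAK-kd in every library. Of the other 26 growth factor genes, 2 were called higher and 5 lower with FAK-WT (1.96% and 3.27% of all genes), and 1 higher and 1 lower with FAK-kd (1.01% and 0.980% of all genes). The gene called lower with both was Inhbb, an activin subunit, at 0.0647, 3.50 and 1.71 CPM in FAK-WT, FAK-/- and FAK-kd cells; its FAK-kd call (adjusted p = 0.0386, edgeR) was lost with DESeq2 (adjusted p = 0.102). Among receptors, none of 25 receptor tyrosine kinases was in the set, where the rule kept 0.272% of all genes as higher and 0.233% as lower. Of these, 6 were called lower with FAK-WT and 1 with FAK-kd (3.27% and 0.980% of all genes), the latter being Fgfr2 at 0.580, 5.60 and 2.05 CPM (log2 fold changes -2.73 and -1.43, adjusted p = 9e-06 and 0.00161, edgeR).

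Further signalling genes were lower. Lef1, the nuclear partner of beta-catenin in Wnt signalling, was nearest to the threshold among them, with 2.56, 1.31 and 1.22 CPM with FAK-WT, 4.17, 4.03 and 5.60 CPM without FAK, and 2.58, 1.85 and 2.27 CPM with FAK-kd. TMM scaling removed it from the set. Bambi, a decoy receptor that dampens TGF-beta signalling, had 1.28, 1.26 and 1.19 CPM, 2.49, 4.07 and 3.26 CPM, and 1.26, 1.19 and 1.51 CPM, so both forms read alike. Shc2, an adaptor of tyrosine kinase receptors, had 0, 1.72 and 1.62 CPM, 6.62, 5.53 and 7.23 CPM, and 2.02, 2.42 and 2.38 CPM. Tmeff1, a membrane protein with EGF-like and follistatin-like parts, had 0, 2.07 and 1.85 CPM, 4.80, 4.39 and 5.05 CPM, and 1.26, 1.13 and 0.989 CPM. Of the other 22 Wnt pathway genes, 1 was called higher and 6 lower with FAK-WT (1.96% and 3.27% of all genes), and 1 higher and none lower with FAK-kd (1.01% and 0.980% of all genes). Sfrp1, a secreted Wnt antagonist, stood at 5.03 CPM with FAK-WT, 80.9 CPM without FAK and 56.9 CPM with FAK-kd. Lrp5, a Wnt co-receptor, moved in opposite directions, with log2 fold changes of -1.61 and 1.23 that were both called.

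Esx1, an X-linked homeobox gene best known from placenta and germ cells, showed the largest ratios of the lower genes with the offset of 0.1 CPM. It had 0, 0.188 and 0.318 CPM with FAK-WT, 5.22, 5.45 and 8.38 CPM without FAK, and 0.411, 0.418 and 0.669 CPM with FAK-kd, 18.3- and 10.8-fold below FAK-/- cells. With an offset of 1 CPM these were 5.86- and 4.90-fold, and Naalad2 had the larger FAK-kd ratio, 5.18-fold. Zfhx4, a zinc finger homeobox gene, was higher, with 3.85, 4.67 and 4.26 CPM, 0.959, 1.19 and 1.15 CPM, and 5.07, 5.73 and 6.80 CPM. These were the members of the set among 64 homeobox, T-box, forkhead and Sox genes at 3 CPM. Over all genes, the rule kept 0.272% as higher and 0.233% as lower. Of the other 62 genes of this list, 16 were called lower and none higher with FAK-WT (3.27% and 1.96% of all genes). None was called in either direction with FAK-kd by edgeR or DESeq2, where 33 had an unadjusted p under 0.05 by edgeR's test. No share of all genes at that unadjusted p was taken. Tbx18 and Sox4 had log2 fold changes of -1.58 and -2.0 with FAK-WT, and of -0.10 and -0.60 with FAK-kd.

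Krt12, an epithelial keratin known from cornea, had 0, 0.993 and 1.22 CPM with FAK-WT, 3.24, 3.87 and 4.35 CPM without FAK, and 0.821, 0.597 and 0.553 CPM with FAK-kd. Krt20 lies 6144 bases away and was called lower with both forms, but unequally, at 0.502, 6.50 and 2.71 CPM in FAK-WT, FAK-/- and FAK-kd cells (log2 fold changes -5.64 and -1.24, adjusted p = 1.52e-07 and 0.00601, edgeR). Its FAK-WT mean includes replicate 1 at 1.28 CPM, the value of 1 count, beside 0.107 and 0.116 CPM in replicates 2 and 3. Krt10, at 6.21, 8.27 and 6.28 CPM, was called in neither comparison. For Krt12, 46.8% of the words recur in other genes, most often A830036E02Rik, so its reads are uncertain.

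Pcdh20, a protocadherin of cell-cell adhesion, had 1.28, 0.778 and 0.984 CPM with FAK-WT, 7.04, 6.56 and 5.82 CPM without FAK, and 0.762, 0.507 and 0.407 CPM with FAK-kd, a level 9.98-fold below FAK-/- cells for FAK-kd. Naalad2, a peptidase related to the folate hydrolase PSMA, had 5.13, 5.23 and 4.55 CPM, 21.6, 22.3 and 17.6 CPM, and 2.52, 2.96 and 3.98 CPM, also with FAK-kd below FAK-WT. Wtip, a LIM protein of cell junctions, had 3.85, 5.07 and 4.57 CPM, 15.1, 15.6 and 23.7 CPM, and 5.13, 5.73 and 6.43 CPM. It was thus highest in FAK-/- replicate 3, and every FAK-kd library exceeded every FAK-WT library. The lower gene with the highest level that is not a pseudogene was Ube2ql1, of the ubiquitin-conjugating enzyme family, with 18, 14.6 and 16.3 CPM, 82.1, 77.9 and 101 CPM, and 19.0, 23.0 and 20.7 CPM. Btg3, an antiproliferative gene, had 0, 6.92 and 6.57 CPM, 19.2, 21.4 and 20.5 CPM, and 9.03, 6.36 and 5.15 CPM. FAK-WT replicate 1 stood apart from its group in this gene. Btg3 shares 33.4% of its words with other genes, most often the overlapping Cxadr on the opposite strand. Nol4, a nucleolar protein gene, had 2.56, 1.13 and 1.42 CPM, 4.05, 3.32 and 3.01 CPM, and 0.645, 0.836 and 1.08 CPM.

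The lower genes not yet described were Egln3, 2010300C02Rik, Glipr2 and Gm20458. Egln3 is an oxygen-sensing prolyl hydroxylase that is itself induced by hypoxia, and it had 10.3, 6.84 and 6.31 CPM with FAK-WT, 17.8, 15.8 and 18.4 CPM without FAK, and 7.57, 7.31 and 6.66 CPM with FAK-kd. 2010300C02Rik stood at 5.13, 5.37 and 6.05 CPM, 23.7, 21.9 and 26.9 CPM, and 11.3, 9.61 and 10.4 CPM, so FAK-kd lay 1.81-fold above FAK-WT, the second widest gap among the lower genes after Ntng1. Glipr2 was 2.75- and 2.25-fold below FAK-/- cells. Egln3, Bambi, Tmeff1, 2010300C02Rik and Glipr2 fall outside the rule for named genes and were described after their values were seen, as were Apol7a, Aqp5, Gpr149, Ctnnal1, Casd1, Heg1, Ces2g, Car5b and Txnip.

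Another group of higher genes had smaller ratios, 2.29- to 3.45-fold with FAK-kd. Gpr149, an orphan receptor, was abundant and even, with 195, 190 and 195 CPM, 67.9, 68.6 and 61.2 CPM, and 160, 173 and 175 CPM. Ctnnal1, an alpha-catenin-like protein, had 44.9, 44.8 and 49.6 CPM, 16.4, 18.9 and 14.2 CPM, and 42.2, 40.8 and 37.9 CPM. For both genes FAK-kd lay slightly below FAK-WT in every library. Aqp5, a water channel of secretory epithelia, had 14.1, 15.1 and 15.3 CPM, 3.27, 3.79 and 3.87 CPM, and 8.80, 10.0 and 10.8 CPM. Txnip, the inhibitor of thioredoxin that responds to glucose, had 7.69, 4.59 and 5.01 CPM, 1.32, 1.54 and 1.41 CPM, and 4.08, 2.78 and 3.29 CPM. Heg1, a mucin-like membrane protein, was 2.69- and 2.37-fold and Car5b, a mitochondrial carbonic anhydrase, 3.64- and 2.33-fold above FAK-/- cells. Casd1, which acetylates sialic acids, and Ces2g, a carboxylesterase, showed the larger ratio with FAK-kd, 3.45 against 2.43 and 2.95 against 2.34. Tmem184a, a membrane protein of the naming rule, had 15.4, 16.4 and 15.5 CPM, 4.23, 4.90 and 5.47 CPM, and 13.3, 13.3 and 15.1 CPM.

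Just inside the threshold of 2 in the smaller ratio were Ifitm3 (2.01), Gpat3 (2.03) and Cped1 (2.22) among the higher genes, and Lef1 (2.01), Gm20458 (2.04) and Pgf (2.09) among the lower ones. Gpat3, an acyltransferase of triglyceride synthesis, had 7.69, 9.53 and 10.0 CPM with FAK-WT, 3.57, 2.96 and 2.94 CPM without FAK, and 7.24, 6.51 and 5.79 CPM with FAK-kd. Cped1 had 3.85, 6.84 and 6.22 CPM, 3.09, 2.73 and 2.85 CPM, and 5.22, 8.54 and 9.48 CPM. Just outside were Cinp (2.00), Dhrs7 (1.96) and Trim7 (1.95), and Vangl2 (1.99), Npr3 (1.98) and Mex3b (1.96). Vangl2, a planar cell polarity gene, had 0, 2.17 and 2.11 CPM, 6.08, 6.24 and 6.33 CPM, and 3.58, 2.93 and 2.70 CPM.

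Some genes cannot be assigned with certainty. Gm12895 and Gm12896, processed pseudogenes 332138 bases apart on chromosome 4, had identical counts in all 9 libraries, so they are 1 measurement. Their value was 89.8, 92.1 and 71.4 CPM with FAK-WT, 112, 110 and 374 CPM without FAK, and 76.9, 64.6 and 88.5 CPM with FAK-kd, and FAK-/- replicate 3 carried the ratio. Without that library both left the set, as did Gm20458 and Lef1 among the lower and Gpat3, Ifitm3 and Sema3c among the higher genes. Gm10925, whose words all occur in other genes, most often mitochondrial mt-Atp6, had 458, 367 and 181 CPM, 111, 112 and 8.03 CPM, and 413, 516 and 168 CPM. Its FAK-/- replicate 3 was far below the other FAK-/- libraries, and replicate 3 was the lowest in each line. Gm15280, an unprocessed pseudogene on the X chromosome, had 38.5, 30.3 and 27.1 CPM, 5.25, 4.62 and 4.0 CPM, and 21.8, 21.3 and 21.2 CPM. It shares 68.4% of its words with other genes, most often Eci2. Gm20458 shares 98.1% of its words with other genes, most often Dbndd2. In all, 10 of the higher and 6 of the lower genes shared over 10% of their words with other genes. Cp, Ogn, Tmem184a, Btg3, Adamts7 and Gm20458 overlap a gene on the opposite strand, and the library kit does not mark strand.

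FAK-WT replicate 1 gave a look at a library that the rule did not use, against FAK-/- libraries that it did. The library lay above all 3 FAK-/- libraries for 27 of the 28 higher genes, where 37.3% of all genes did so, and below all of them for 23 of the 24 lower genes, where 41.4% did. In this library 1 count equals 1.28 CPM. The exceptions were Ces2g, with 1 count, and Gm20458, with 12 counts, which lay above the FAK-/- libraries at 15.4 CPM. Of the 19 genes for which the other FAK-WT libraries predict at least 10 counts, all 19 lay beyond the FAK-/- libraries on the side of their group. The genes were chosen because these FAK-/- libraries lay apart from other libraries of the same line, so this outcome lends them no support. No share over all genes with that many predicted counts was taken. The 95% exact Poisson interval of replicate 1, which covers counting error only, held the mean of replicates 2 and 3 in 25 of 28 higher and 22 of 24 lower genes. It missed it for Mrgprf, Gm10925 and Car5b and for Btg3 and Gm20458. In 7 lower genes replicate 1 had 0 counts, for which the interval reaches 4.73 CPM. That limit lies above the lowest FAK-/- library of Sema3d, Krt12, Ntng1 and Tmeff1, and below all FAK-/- libraries of Esx1, Btg3 and Shc2.

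**Figure D4:**
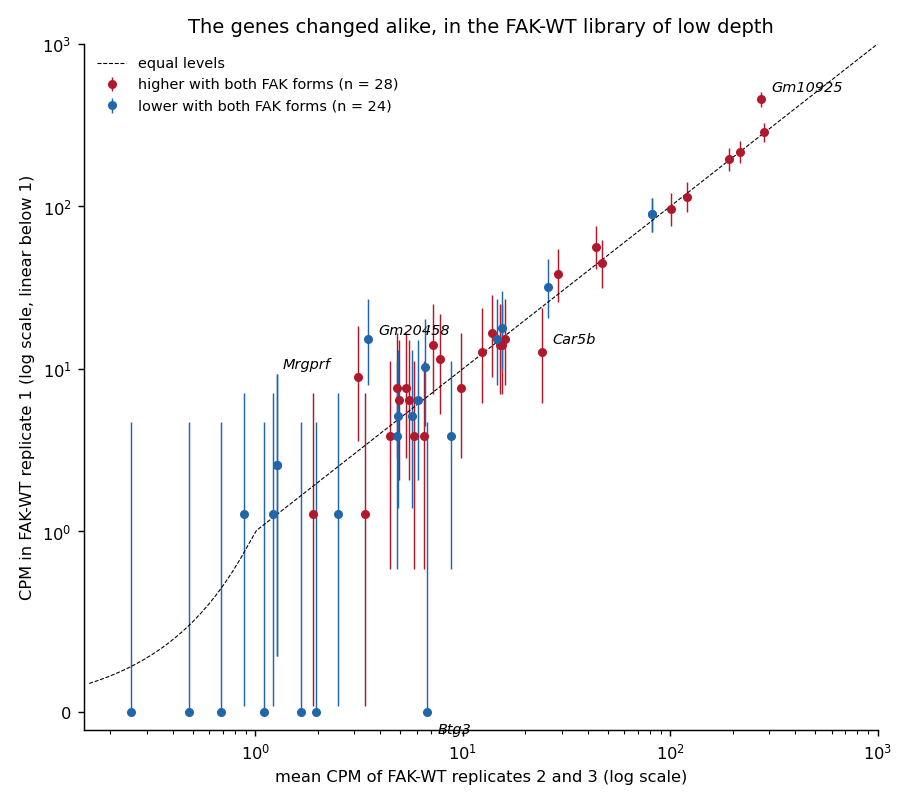
CPM in FAK-WT replicate 1 with its 95% exact Poisson interval (y axis) against the mean of FAK-WT replicates 2 and 3 (x axis), both on log scales, for the 28 higher and 24 lower genes; the dashed line marks equal levels. Most intervals cross the line, and Mrgprf, Gm10925, Car5b, Btg3 and Gm20458 are named because theirs do not.

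Other listed genes of FAK's own pathway were not in the set. The rule kept only 0.272% of all genes at 3 CPM as higher and 0.233% as lower. Absence of a short list from the set therefore says little about that list. The calls counted in this paragraph stand beside 1.96% of all genes called higher and 3.27% lower with FAK-WT, and 1.01% and 0.980% with FAK-kd. These shares do not apply to the counts at unadjusted p under 0.05, for which no share of all genes was taken. With no minimum fold, 2932 of the 10301 genes with FAK-WT and 1314 with FAK-kd had an adjusted p of at most 0.05 in edgeR's test. Of 33 focal adhesion and FAK signalling genes at 3 CPM, Ptk2 was in the set and none of the other 32 was called by edgeR or DESeq2 in either comparison, although 19 with FAK-WT and 14 with FAK-kd had an unadjusted p under 0.05. Their median log2 fold changes were -0.195 and 0.0635. None of 13 integrins was in the set, although 2 were called higher and 2 lower with FAK-WT. With FAK-kd edgeR and DESeq2 called none, and 7 had an unadjusted p under 0.05. Itgb3 was the most strongly called, at 0.277, 11 and 18.2 CPM in FAK-WT, FAK-/- and FAK-kd cells. None of the 28 p53 target genes was in the set, although 5 were called higher with FAK-WT. With FAK-kd neither tool called any of them, and 19 had an unadjusted p under 0.05. Ephx1, a detoxifying epoxide hydrolase, had log2 fold changes of 1.13 and 0.91. Of 4 inflammatory caspase and inflammasome genes 3 were called higher with FAK-WT and none with FAK-kd by either tool, although all 4 had an unadjusted p under 0.05 there. Casp1 stood at 26.1, 5.07 and 8.02 CPM. Among 28 AP-1 and ETS factors only Maf was called, lower with FAK-WT (log2 fold change -2.21) and not with FAK-kd (-0.35), where neither tool called any and 12 had an unadjusted p under 0.05. Of the other 4 cornified envelope and keratin genes, 2 were called higher and 1 lower with FAK-WT, and none with FAK-kd by either tool, where 3 had an unadjusted p under 0.05. Of 5 Y-linked and X-inactivation genes, 3 were called lower with FAK-WT and 1 with FAK-kd, Uba1y being called in both at 10.6, 61.1 and 0.962 CPM. Y-linked levels thus differed between the lines, and their relation to the 52 genes was not tested.

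By position, the 28 higher genes lay on 14 chromosomes and the 24 lower genes on 15. The nearest expressed genes within 500 kb, other than genes of the set, numbered 41 for the higher genes, and 4 of these were called higher with FAK-WT, 5 with FAK-kd and 2 with both, Omd and Apol9a, where 1.96% and 1.01% of all genes were called higher. The called neighbours include Gm28661, 234 bases from Gm10925, and Gm7609, the gene with which Sp100 shares most words. The part of shared reads in these counts was not tested. The 33 neighbours of lower genes included 1 called lower, Krt20, in both comparisons, where 3.27% and 0.980% of all genes were called lower. Ly6e, 34972 bases from Ly6a, was called higher with FAK-kd (77.0 to 170 CPM) and not with FAK-WT (80.6 CPM). B4galnt4, 50334 bases from Ifitm3, went the other way and was called lower with FAK-WT, at 4.25 against 23.0 CPM.

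Promoters were searched for the letters of AP-1, CRE and ETS factors, which the study considered, and for other common motifs added here. RefSeq promoters of GRCm38.p6, 250 bases before to 50 bases after a start site, matched 36 of the 52 genes. There were 24 promoters from 19 higher genes and 24 from 17 lower genes. Shares below are over promoters, so a gene with several promoters can count more than once. The AP-1 letters TGANTCA, which read the same on both strands, occurred in 3 and 2 of these, 12.5% and 8.33%, beside 7.79% of all 32544 promoters and 4.78% of the 10221 promoters of genes at 3 CPM. The part before the start site is shown for the 5 genes that hold it, 5′ to 3′ on the gene's strand, with the match in capitals:
Cp (chr3:19956804-19957053, plus strand): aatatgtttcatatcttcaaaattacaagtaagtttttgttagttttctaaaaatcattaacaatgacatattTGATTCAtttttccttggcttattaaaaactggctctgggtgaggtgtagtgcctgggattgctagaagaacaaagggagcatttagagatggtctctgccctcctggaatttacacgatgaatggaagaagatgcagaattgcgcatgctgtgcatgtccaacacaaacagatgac
Efemp1 (chr11:28852955-28853204, plus strand): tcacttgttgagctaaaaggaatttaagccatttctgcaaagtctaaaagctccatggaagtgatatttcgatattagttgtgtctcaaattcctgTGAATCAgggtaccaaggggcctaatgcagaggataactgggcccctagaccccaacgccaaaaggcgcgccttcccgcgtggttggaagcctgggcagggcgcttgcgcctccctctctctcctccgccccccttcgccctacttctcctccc
Ifitm3 (chr7:141010745-141010994, minus strand): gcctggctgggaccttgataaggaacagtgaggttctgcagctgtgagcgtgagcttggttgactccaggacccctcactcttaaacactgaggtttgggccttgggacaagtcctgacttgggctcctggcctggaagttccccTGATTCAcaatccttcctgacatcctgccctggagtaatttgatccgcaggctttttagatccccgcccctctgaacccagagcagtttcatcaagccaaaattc
Esx1 (chrX:137120327-137120576, minus strand): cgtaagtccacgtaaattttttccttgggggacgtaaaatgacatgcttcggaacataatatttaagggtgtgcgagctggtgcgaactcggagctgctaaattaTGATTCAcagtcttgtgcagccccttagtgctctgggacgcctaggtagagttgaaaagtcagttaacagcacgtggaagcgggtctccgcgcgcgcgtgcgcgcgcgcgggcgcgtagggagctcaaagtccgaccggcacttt
Il11 (chr7:4778142-4778391, minus strand): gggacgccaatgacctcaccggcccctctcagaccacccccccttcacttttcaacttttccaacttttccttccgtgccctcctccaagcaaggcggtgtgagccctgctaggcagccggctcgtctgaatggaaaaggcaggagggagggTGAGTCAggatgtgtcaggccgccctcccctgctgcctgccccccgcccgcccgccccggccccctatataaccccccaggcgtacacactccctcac

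The match began 177, 154, 105, 145 and 98 bases before the start site in Cp, Efemp1, Ifitm3, Esx1 and Il11, so the letters occurred in genes of both directions. The ETS letters CCGGAAG were found in 0 of 24 and 1 of 24 promoters (Btg3), beside 8.91% of all promoters and 19.5% of those of genes at 3 CPM. TEAD letters, GGAATG, were found in 6 of 24 (25.0%, in Cp, Ogn, Sp100 and Tenm4) and 3 of 24 (12.5%, in Ntng1, Shc2 and Wtip), beside 14.6% and 11.5%. The interferon response letters GAAANNGAA were found in 2 higher promoters (Ifitm3 and Tenm4) and 1 lower promoter (Sema3d), beside 8.53% of all. The cAMP response element letters, TGACGTCA, were found in none of the 48, beside 1.80% of all promoters. All motifs were searched on both strands. Median GC content was 52.7% in promoters of the higher genes and 60.0% in those of the lower genes, beside 61.3% for genes at 3 CPM. The part of GC content in these shares was not tested. A match of letters is a description of the window and says nothing of a factor's binding.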

How the data were processed

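RNA-seq was analysed for 9 libraries of mouse SCC cells, grouped by the sample titles. The authors pseudoaligned paired-end reads with kallisto (version 0.43.1 per the submitters' processing notes) and used tximport to sum transcripts per gene. What they deposited are estimated counts as whole numbers, with no scaling to library size. The release of the transcriptome is not given in the sources used here. CPM are counts divided by the column sum, so low genes in FAK-WT replicate 1, with 779755 counts, are imprecise. FAK-WT means given for genes outside the set include this library.

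The 52 genes and the gene lists were chosen with earlier results of these data known, and a supplementary gene table of the study had been read when the lists were drawn up, so neither is independent evidence. Lists and neighbouring genes were tested with edgeR 4.0.16 in R 4.3.3 (TMM, quasi-likelihood test, all 9 libraries in 1 fit, cell line as the only factor, Benjamini-Hochberg adjustment over 19044 identifiers). Calls were counted among genes at 3 CPM. Named genes were Ptk2, the 15 genes per direction with the largest smaller ratio, set genes on a list, 3 on each side of the threshold, and up to 4 other called genes per list by adjusted p. Symbols matched 18856 of 19044 identifiers; positions are from GENCODE for GRCm38. Steps were tested on simulated data.

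Same-numbered libraries of different lines did not deviate together (mean r across genes -0.0198 over 9 pairs, 0.0103 over 18 pairs with different numbers), so no pairing was assumed. Alternatives were TMM scaling, other offsets and thresholds, FAK-WT replicate 1 included, DESeq2 1.42.0, its size factors, filterByExpr, a replicate block, no minimum fold, and each library left out in turn.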

Additional observations from a re-analysis of the deposited data

How the results depend on the processing

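The number of higher genes, 28, became 82 with a minimum fold of 1.5, 13 with a minimum of 3 and 15 with a minimum level of 10 CPM. The 24 lower genes became 86, 8 and 12 under the same settings, 44 at 1 CPM and 40 where libraries were allowed to overlap. Leaving out 1 library gave 28 to 38 higher and 23 to 34 lower genes. Without FAK-/- replicate 3 there were 29 and 23, of which 25 and 20 were in the original set. With an offset of 1 CPM there were 25 and 30, of which 22 and 19 were in the original set. TMM scaling removed Ifitm3 and Lef1. Restricting FAK-WT replicate 1 to genes with at least 10 predicted counts left 19 genes beyond the FAK-/- libraries in place of 50, because fewer genes were examined. Leaving out a FAK-/- library kept the number at 50. That step could not have lowered it, because fewer libraries only narrow the FAK-/- range. Chosen after seeing the data, a 3 CPM minimum before the offset changed neither count, and leaving out genes sharing over 50% of their words gave 25 and 21. The smaller ratio of each gene was followed under TMM scaling, the offset of 1 CPM, FAK-WT replicate 1 included and each library of the rule left out. None reversed. Since the rule admits no overlap, a changed offset or a library left out could not reverse a ratio, so this lends the genes no support.

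Calls against FAK-/- cells numbered 539 with FAK-WT and 205 with FAK-kd, 509 to 571 and 170 to 231 with 1 library left out, and 2932 and 1314 with no minimum fold. With the replicate block they were 546 and 208. DESeq2 gave 527 and 183. A count of 0 in FAK-WT replicate 1 leaves levels up to 4.73 CPM possible by its 95% Poisson interval.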
